A study of Mus musculus with 12 samples.

Results

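The genes described here are 10 genes by which fibroblasts, pericytes and the matrix that they make are often recognised: Pdgfra, Pdgfrb, Cspg4, Thy1, Dcn, Lum, Fn1, Fbn1, Eln and Sparc. They were chosen by name, with earlier results of these data known, and all 10 were found among the 26190 genes of the expression table. RNA-seq was carried out on atria and ventricles of hearts from mouse embryos of E11.5 (referred to as E11.5H) and on heart organoids (HOs) after 13 days of culture, which had been dissected into an atrium-like and a ventricle-like part. Each of these 4 groups had 3 libraries. All 4 groups carry the strain label C57BL/6 and no genetic change. The methods name embryonic stem cell lines from C57BL/6 and from an F1 hybrid of C57BL/6 and JF1, and do not say which of them gave these libraries. The HOs were grown from embryoid bodies of mouse embryonic stem cells on a gel of laminin and entactin with FGF4, with BMP4, BIO and LIF added in the later part of the culture. The samples are pieces of tissue with many cell types, and the parts of the HOs were separated by hand. The 12 libraries held from 23971258 to 30540993 fragments assigned to genes.

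Fibroblasts and pericytes are the stromal cells of the heart. Fibroblasts lay down the interstitial matrix, and pericytes wrap the capillaries and help to stabilise them. Many fibroblasts and their progenitors carry the receptor PDGFRα, and pericytes are drawn to vessels through PDGFRβ, whose ligand PDGF-B is released by endothelial cells. None of the 10 genes is restricted to a single cell type: cardiomyocytes, endothelial, smooth muscle and endodermal cells can also express some of them. In such bulk samples fewer cells of a type and less RNA per cell cannot be told apart.

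Levels are given as FPKM (fragments scaled to transcript length and library total), the only scale here on which genes can be compared with each other. The level of Sparc, a collagen-binding matricellular protein, was the highest of the 10 in every group, and Thy1, a surface glycoprotein of mesenchymal and other cells, was the lowest. Sparc ranked 156 among all genes in both chambers of E11.5H, 47 in the atrium-like parts and 43 in the ventricle-like parts. By mean FPKM the next after Sparc was Fn1 in both chambers of E11.5H (158 in atria and 124 in ventricles). It was Lum in the atrium-like parts (206) and Dcn in the ventricle-like parts (258). The receptor genes lay between 0.752 and 29.1 FPKM over all 12 libraries. The spread within a group was small in E11.5H and wide in HOs. The common biological coefficient of variation over all genes was 0.211 in the comparison of E11.5H chambers and 0.677 in the comparison of HO parts.

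**Figure D1:**
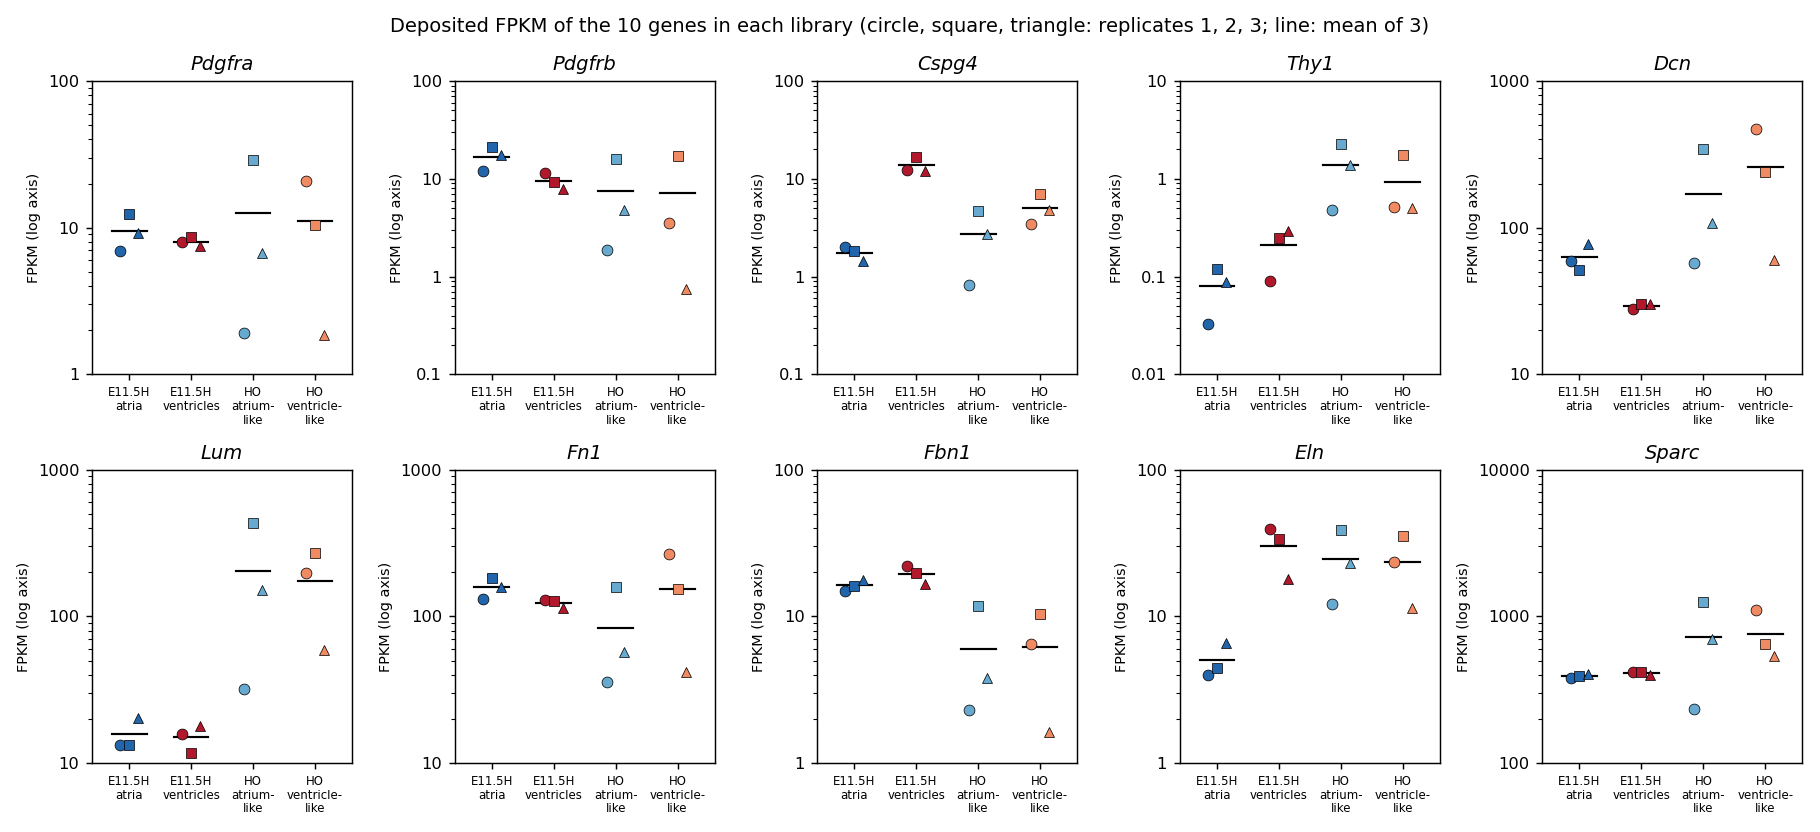
FPKM (vertical log axes, each with its own range) of the 10 genes in the 3 libraries of each of the 4 groups; symbols mark replicates 1, 2 and 3 and lines the mean. The E11.5H libraries lie close together, and in the HOs atrium-like replicate 1 and ventricle-like replicate 3 are low for nearly all of the genes.

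RefSeq promoter sequences (GRCm38.p6, 250 bases before to 50 after the start) were at hand for 4 of the 10 genes. Those of Cspg4, Pdgfra and Fbn1 are shown because these genes took different courses over the 4 groups. Capitals mark GGGCGG (the GC box) on either strand and CANNTG (the E-box), which reads the same on both strands. The promoter of Cspg4 on chr9:56864854-56865153, plus strand, held 2 GC boxes on its minus strand, with first bases at -120 and -85 from the start, and no E-box.
Cspg4: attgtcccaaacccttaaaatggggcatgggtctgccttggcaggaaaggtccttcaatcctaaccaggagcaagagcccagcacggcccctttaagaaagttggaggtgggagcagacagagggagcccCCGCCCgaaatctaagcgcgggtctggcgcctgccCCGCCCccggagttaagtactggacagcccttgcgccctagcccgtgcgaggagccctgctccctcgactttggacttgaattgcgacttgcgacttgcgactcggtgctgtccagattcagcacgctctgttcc
The promoter of Pdgfra on chr5:75152001-75152300, plus strand, held 2 E-boxes, at -182 and 18, and no GC box.
Pdgfra: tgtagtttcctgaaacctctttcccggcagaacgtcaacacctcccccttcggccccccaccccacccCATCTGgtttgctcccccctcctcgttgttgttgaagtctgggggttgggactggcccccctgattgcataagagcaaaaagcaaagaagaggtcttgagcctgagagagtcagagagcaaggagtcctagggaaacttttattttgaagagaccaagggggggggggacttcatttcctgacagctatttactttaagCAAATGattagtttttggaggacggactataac
The promoter of Fbn1 on chr2:125506389-125506688, minus strand, held 1 GC box at -185 and 1 E-box at 39.
Fbn1: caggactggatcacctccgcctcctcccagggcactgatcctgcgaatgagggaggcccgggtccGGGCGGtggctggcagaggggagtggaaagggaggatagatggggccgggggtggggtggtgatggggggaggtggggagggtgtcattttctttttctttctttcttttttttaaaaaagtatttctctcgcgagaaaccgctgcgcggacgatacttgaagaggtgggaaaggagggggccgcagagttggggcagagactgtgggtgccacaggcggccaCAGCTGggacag
A GC box was held by 35.7% and an E-box by 72.3% of the 32851 promoters of all genes, so both are common, and a match is a description of the letters only. The GC content was 60.0% for Cspg4, 51.0% for Pdgfra and 60.3% for Fbn1, with a median of 52.7% over all promoters.

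The first question was which of these genes differ between the chambers of E11.5H. Cspg4 and Eln were higher in the ventricles and Dcn in the atria. A gene was called where edgeR's quasi-likelihood test gave an adjusted p (Benjamini-Hochberg) under 0.05 and a log2 fold change over 1 either way. By this rule 3 of 9 genes tested were called, beside 4.9% of all 14536 genes tested. Of these, 1 was higher in atria (2.92% of all genes) and 2 were lower (1.97%). Thy1 did not pass the filter on low counts. FPKM did not overlap between the chambers for 5 of the 9, beside 33.1% of all genes.

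Cspg4 encodes NG2, a proteoglycan of pericytes and other mural cells that is also made by other cells. Its FPKM was 2.01, 1.82 and 1.45 in the atria and 12.3, 16.8 and 12.1 in the ventricles. All 3 ventricular libraries lay far above the atrial ones. In edgeR the log2 fold change of atria against ventricles was -3.03 (SE 0.16, adjusted p = 1.92e-06).

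Eln encodes tropoelastin, the core of elastic fibers. Its FPKM was 3.98, 4.45 and 6.59 in the atria and 39.1, 33.9 and 17.9 in the ventricles. The groups did not overlap, although ventricular replicate 3 was lower than the other two. The log2 fold change was -2.66 (SE 0.27, edgeR adjusted p = 0.000143). Ventricular replicate 3 also held more of a list of 10 erythroid genes, 54296 CPM in sum against 8198 and 13561 in replicates 1 and 2. The part of blood in these levels was not tested.

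Dcn encodes decorin, a small leucine-rich proteoglycan that binds collagen fibrils. It had 59.3, 51.4 and 78.0 FPKM in the atria and 27.7, 30.0 and 30.3 in the ventricles. Every atrial library was above every ventricular one, with a log2 fold change of 1.03 (SE 0.14, edgeR adjusted p = 0.000953). This value sits at the fold limit: it was 0.84 without atrial replicate 3 and 0.98 without ventricular replicate 1, so that Dcn was no longer called. Fitted with all 12 libraries together, which share the wide spread of the HOs, its adjusted p was 0.873.

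Pdgfrb had 11.9, 20.9 and 17.5 FPKM in the atria and 11.52, 9.35 and 7.81 in the ventricles. The groups did not overlap, and the adjusted p was 0.0227 in edgeR, but the log2 fold change of 0.74 (SE 0.18) was under the limit. Pdgfra had 9.49 ± 2.70 FPKM (SD, n = 3) in the atria and 8.05 ± 0.583 in the ventricles, and the groups overlapped. Fn1, which encodes fibronectin, had a log2 fold change of 0.28 (SE 0.09, edgeR adjusted p = 0.0800), and Fbn1, which encodes the microfibril protein fibrillin-1, one of -0.32 (SE 0.10, adjusted p = 0.0502). Lum (lumican, a proteoglycan of the same family as decorin) and Sparc had values of -0.02 and -0.15, neither past the threshold. Thy1 was covered by only 2, 7 and 5 fragments in the atria and 5, 14 and 15 in the ventricles.

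The second question was whether the parts of HOs differ in the same way. In edgeR none of the 10 genes was called in this comparison, where 0.0% of 15703 genes tested were called. Before adjustment 889 genes (5.66%) and again 0 of the 10 were under 0.05, and DESeq2 called 59 genes of all and none of the 10. FPKM of the parts overlapped for all 10, while 13.3% of all genes did not overlap. The lowest adjusted p among the 10 was 0.750, for Cspg4 (log2 fold change -0.80, SE 0.55). Eln had 12.1, 38.6 and 23.3 FPKM in the atrium-like and 23.5, 35.3 and 11.4 in the ventricle-like parts, with a log2 fold change of 0.19 (SE 0.49). With this spread a difference of the size seen for Dcn in E11.5H was not detectable, since the SE for Dcn was 0.85 in HOs.

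The difference between the 2 chamber contrasts was tested as an interaction over all 12 libraries. None of the 10 genes passed, beside 0.152% of 16494 genes tested. Before adjustment 2 of the 10 were under 0.05, beside 11.7% of all genes. These were Eln (2.88, SE 0.63, edgeR adjusted p = 0.156) and Cspg4 (2.25, SE 0.62, adjusted p = 0.244). DESeq2 called both, with adjusted p = 0.000882 for Eln and 0.0159 for Cspg4, and it called 455 of 16338 genes of all. Without HO atrium-like replicate 1 edgeR called Cspg4 as well (2.64, adjusted p = 0.0484), beside 36 of 16994 genes of all.

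Each part of the HOs was then compared with the matching chamber of E11.5H. These comparisons each use the same 3 libraries of a group as those above, so the values are not independent of them. In the atrium-like parts 3 of the 10 genes were called, Lum, Thy1 and Eln, and all 3 were higher than in atria. In edgeR 24.8% of 15418 genes were called in this comparison, and 16.0% were higher and 8.81% lower, so that 3 of 10 is not far above the background. FPKM did not overlap for 4 of the 10, beside 54.4% of all genes. The median log2 fold change was 0.86 over the 10 genes and 0.06 over all genes.

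**Figure D2:**
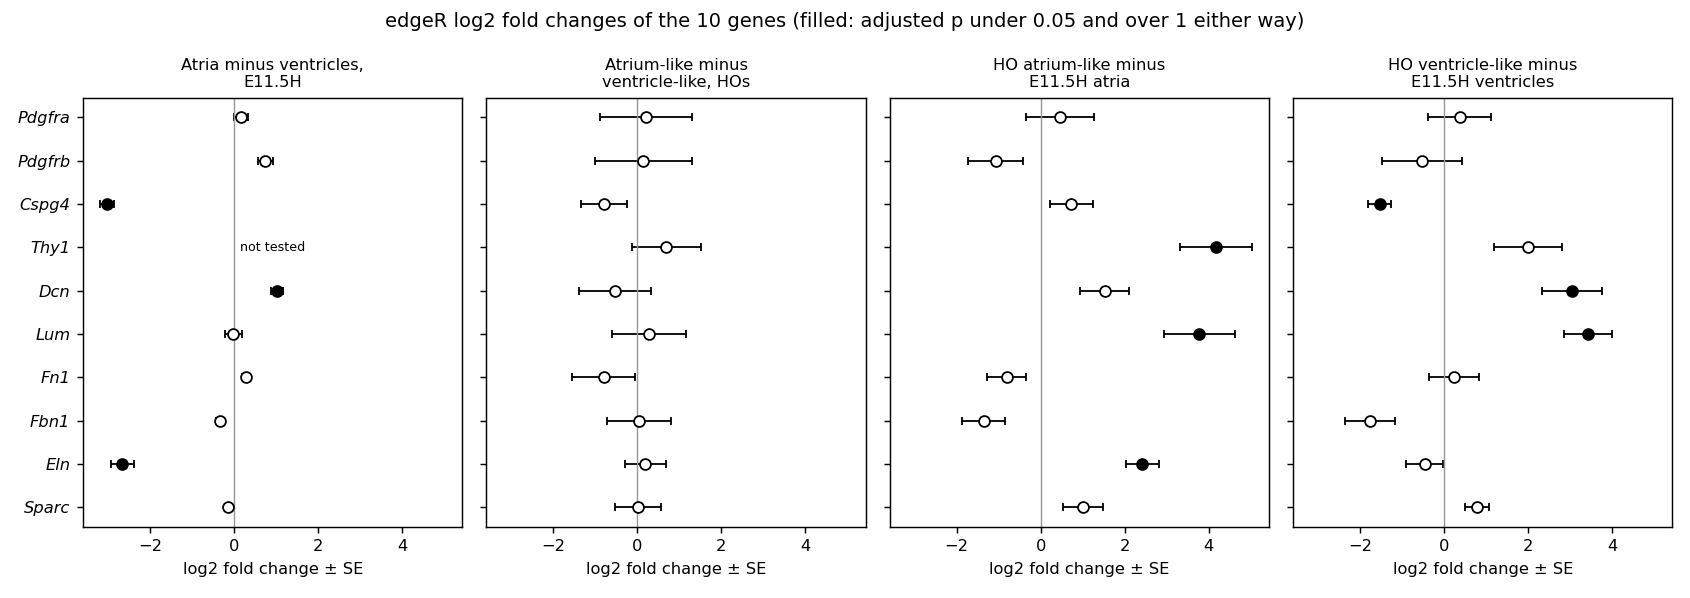
log2 fold changes with their SE from edgeR (horizontal axes) for the 10 genes in the 4 comparisons; filled points passed the rule for a call. The error bars are short for E11.5H chambers and long wherever HO libraries enter, and only Lum, Thy1, Eln, Dcn and Cspg4 have filled points there.

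Lum had 13.3, 13.3 and 20.4 FPKM in atria and 32.1, 434 and 150.3 in the atrium-like parts. All 3 atrium-like libraries were higher, but they differed from each other by far more than the atria. The log2 fold change was 3.78 (SE 0.84, edgeR adjusted p = 0.0187). Thy1 had 0.0326, 0.120 and 0.0888 FPKM in atria and 0.483, 2.24 and 1.399 in the atrium-like parts, which is 24, 132 and 79 fragments. Its log2 fold change of 4.18 (SE 0.85, edgeR adjusted p = 0.0150) rests on the few fragments in atria. Eln rose from 5.01 ± 1.39 to 24.7 ± 13.3 FPKM (SD, n = 3), with a log2 fold change of 2.42 (SE 0.39, edgeR adjusted p = 0.00762). Eln in the atrium-like parts was thus at a level near that of E11.5H ventricles (30.3 ± 11.1 FPKM).

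The calls for Lum and Thy1 needed all 3 atrial libraries: without replicate 1, 2 or 3 of the atria the edgeR adjusted p of Lum was 0.0824, 0.0814 and 0.0670, and that of Thy1 was 0.0672, 0.0607 and 0.0707. The call for Eln was kept in each of these fits, with an adjusted p of at most 0.0452. Over all genes tested the number of calls fell from 3821 to between 1662 and 1726 in these fits. The HO libraries also decided which genes were called. Without atrium-like replicate 1, Dcn (1.87, adjusted p = 0.0278), Sparc (1.36, 0.00839) and Cspg4 (1.11, 0.0292) were called as higher too. Without atrium-like replicate 2, Pdgfrb (-2.10, 0.0116), Fn1 (-1.52, 0.00392) and Fbn1 (-2.19, 0.00118) were called as lower. Of all genes 3726 of 15978 were called without atrium-like replicate 1 and 5495 of 15823 without atrium-like replicate 2.

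Of the other 7 genes in this comparison, Dcn had 57.5, 345 and 108 FPKM in the atrium-like parts and overlapped the atria (1.52, SE 0.57, edgeR adjusted p = 0.0882). Fbn1 had 2.29, 11.8 and 3.82 FPKM against 14.9, 16.2 and 17.8 in atria. These groups did not overlap, yet the adjusted p was 0.0881 (log2 fold change -1.36, SE 0.51). Sparc had 235, 1250.0 and 703 FPKM around the narrow 381 to 403 of atria (0.998, SE 0.48, adjusted p = 0.157). For Pdgfra, Pdgfrb, Fn1 and Cspg4 the HO libraries lay on both sides of the atrial ones or overlapped them, with adjusted p from 0.224 to 0.692.

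In the ventricle-like parts Dcn and Lum were higher than in ventricles of E11.5H and Cspg4 was lower. These are 3 of the 10 genes, beside 18.9% of 15094 genes tested in edgeR, of which 11.6% were higher and 7.35% lower. FPKM did not overlap for 6 of the 10, beside 50.7% of all genes. The median log2 fold change was 0.30 over the 10 genes and 0.09 over all genes.

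Dcn had 474, 240.4 and 60.0 FPKM in the ventricle-like parts against 27.7, 30.0 and 30.3 in ventricles, with a log2 fold change of 3.05 (SE 0.71, edgeR adjusted p = 0.0242; 0.0586 with limma voom, which did not call it). Lum had 197, 269 and 59.0 FPKM against 15.7, 11.8 and 17.9, with a log2 fold change of 3.43 (SE 0.57, adjusted p = 0.00914). The lowest ventricle-like library, replicate 3, was still above all ventricles for both genes. Cspg4 had 3.41, 7.01 and 4.81 FPKM against 12.3, 16.8 and 12.1, with a log2 fold change of -1.53 (SE 0.27, edgeR adjusted p = 0.0116). Its groups did not overlap.

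The call for Dcn was lost without replicate 1, 2 or 3 of the E11.5H ventricles (edgeR adjusted p = 0.103, 0.102 and 0.0967). That for Lum was lost without ventricular replicate 1 or 2 (0.0551 and 0.0569), and that for Cspg4 without ventricular replicate 2 (0.0563). Over all genes the number of calls fell from 2859 to 1201 and 1116 without ventricular replicate 1 and 2.

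Fbn1 had 6.48, 10.3 and 1.64 FPKM in the ventricle-like parts and 22.1, 19.9 and 16.6 in ventricles. The groups did not overlap, and the edgeR adjusted p was 0.0701 (log2 fold change -1.76, SE 0.60). It was called without ventricle-like replicate 2 (-2.33, 0.0352) or replicate 3 (-1.35, 0.00574). Thy1 (1.996, SE 0.81, adjusted p = 0.114) and Sparc (0.79, SE 0.28, adjusted p = 0.0814) did not overlap either and did not pass. Pdgfra, Pdgfrb, Fn1 and Eln overlapped, with adjusted p from 0.462 to 0.785. In edgeR Lum was thus the only one of the 10 called as higher in both parts of HOs, and none was called as lower in both. DESeq2 called Dcn as higher in both as well (adjusted p = 0.0212 in the atrium-like and 3.84e-06 in the ventricle-like parts) and Fbn1 as lower in both (0.0259 and 0.00554). All 3 limma fits also called Fbn1 as lower in both, with adjusted p from 0.0427 to 0.0446 in the atrium-like and from 0.0434 to 0.0499 in the ventricle-like parts, and edgeR on all 12 libraries did so in the latter (0.0494).

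By mean FPKM the order of the 4 groups differed between the genes. For Lum and Thy1 both parts of HOs were above both chambers of E11.5H, and the libraries of the middle neighbours did not overlap. For Fbn1 both chambers of E11.5H were above both parts of HOs, again with no overlap between the middle neighbours. For Cspg4 the ventricles of E11.5H stood above the other 3 groups, and for Eln the atria of E11.5H stood below them. Dcn followed the order ventricle-like parts, atrium-like parts, atria, ventricles, with a gap only between the last neighbours. For Pdgfrb only the atria and ventricles of E11.5H, the highest neighbours, were apart, whereas for Pdgfra, Fn1 and Sparc no neighbours were.

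The wide spread of HOs had a shared order. This order was noticed after the values were seen and is a description. For 9 of the 10 genes the lowest FPKM values of the 6 HO libraries were those of atrium-like replicate 1 and ventricle-like replicate 3, a pair that was lowest for 11.1% of all 15703 genes. Cspg4 was the exception, with ventricle-like replicate 3 second from the top. Atrium-like replicate 1 was in the lowest 2 for all 10 genes, beside 56.6% of all genes. Ventricle-like replicate 3 was there for 9, beside 23.7%. By FPKM atrium-like replicate 1 was the lowest for 6 of the 10, beside 40.8% of all genes, and by CPM for 3 of the 10. Ventricle-like replicate 3 was the lowest for 4 by FPKM, beside 9.24% of all genes, and for 7 by CPM. The shares over all genes were computed from FPKM only. Atrium-like replicate 2 was the highest for 6 genes (15.0% of all genes) and among the top 2 for 9 (37.1%). In the atrium-like parts the order replicate 2, 3, 1 from high to low held for 10 of the 10 genes, beside 34.7% of all genes. Pdgfra ran from 1.84 FPKM in ventricle-like replicate 3 to 29.1 in atrium-like replicate 2, and Pdgfrb from 0.752 in ventricle-like replicate 3 to 17.2 in ventricle-like replicate 2.

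Gene lists of other cell types also differed between the 6 HO libraries. The median of the 10 genes, as log2(CPM + 1) relative to the mean of the 6 libraries, was -1.13, 0.95 and 0.07 in atrium-like replicates 1, 2 and 3 and 0.43, 0.58 and -1.21 in ventricle-like replicates 1, 2 and 3. In the same libraries a list of 12 hepatocyte and visceral endoderm genes had medians of 2.91, -1.05, 2.67, -1.96, -4.71 and 1.72. The 12 gut epithelium genes had 2.28, -0.10, 1.84, -1.16, -4.22 and 1.17. These endodermal genes were thus high in both libraries that were low for the 10 genes, and also in atrium-like replicate 3, which was in the middle. The 10 endothelium genes had medians of -0.85, 1.51, -0.57, -0.78, 1.05 and -1.27, and were thus low in the same pair of libraries and highest in replicate 2 of each part. Neural and glial genes had -0.96, 0.52, -1.004, 0.24, 0.91 and -0.89, and cartilage genes -0.52, 0.81, -0.30, -0.21, 0.99 and -0.45. Both lists were also low in that pair, but neural and glial genes were lowest in atrium-like replicate 3. Both were highest in replicate 2 of each part. Skeletal muscle genes were highest in the same libraries (1.30 and 1.005), and parietal endoderm genes in atrium-like replicate 2 (1.65). The summed level of the hepatocyte and visceral endoderm list was 1553 to 33441 CPM in the atrium-like parts, 50.6 to 10013 in the ventricle-like parts and 6.30 to 12.8 in E11.5H, where Apoc2 was at 0 in every library. The 16 cardiomyocyte genes did not share the order: they were lowest in atrium-like replicate 1 (-1.70) and highest in ventricle-like replicate 3 (1.64). The 10 other pericyte genes had -1.13, 0.48, 0.23, -0.25, 0.40 and 0.17. They were thus low in atrium-like replicate 1 but not in ventricle-like replicate 3. The 10 smooth muscle genes had -1.26, 0.37, -0.41, 0.83, 0.48 and -0.20. The 12 other genes of fibroblasts and mesenchyme had -0.67, 0.83, -0.43, 0.78, 0.87 and -1.28, and were lowest in the pair. The part of these cells in the levels of the 10 genes was not tested.

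**Figure D3:**
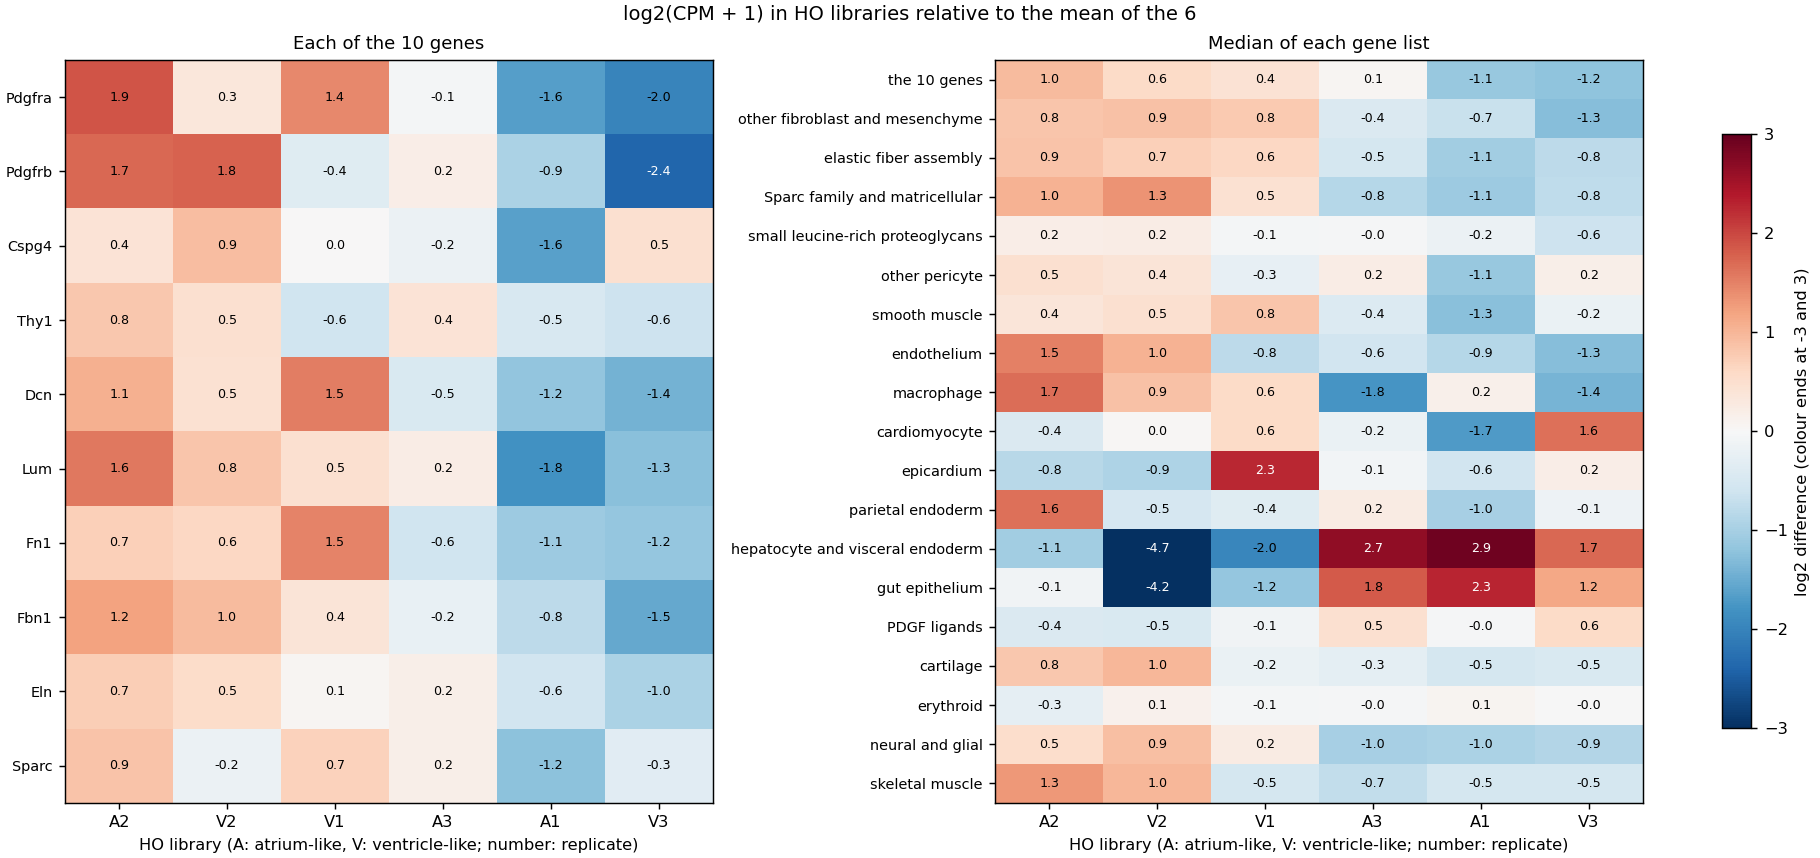
log2(CPM + 1) in the 6 HO libraries relative to their mean, for each of the 10 genes (left) and as the median of each gene list (right); columns are ordered by the median of the 10 genes, from high to low. The 10 genes are mostly red in A2, V2 and V1 and blue in A1 and V3, while the hepatocyte and visceral endoderm and gut epithelium lists are red in A1, A3 and V3.

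Ratios within a library do not depend on its depth. They were chosen after the values were seen and are given without a test. Eln over Fbn1 was 0.267, 0.274 and 0.369 in atria, 1.77, 1.70 and 1.08 in ventricles, 5.29, 3.27 and 6.10 in atrium-like and 3.63, 3.42 and 6.99 in ventricle-like parts. All 6 HO libraries lay above all 6 of E11.5H, including those that were low for both genes. Fbn1 over Fn1 was lower in all 6 HO libraries (0.0242 to 0.0745) than in all 6 of E11.5H (0.0893 to 0.170). Elastin is deposited on microfibrils of fibrillin, and both ratios set matrix genes of the same fibers or networks against each other.

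**Figure D4:**
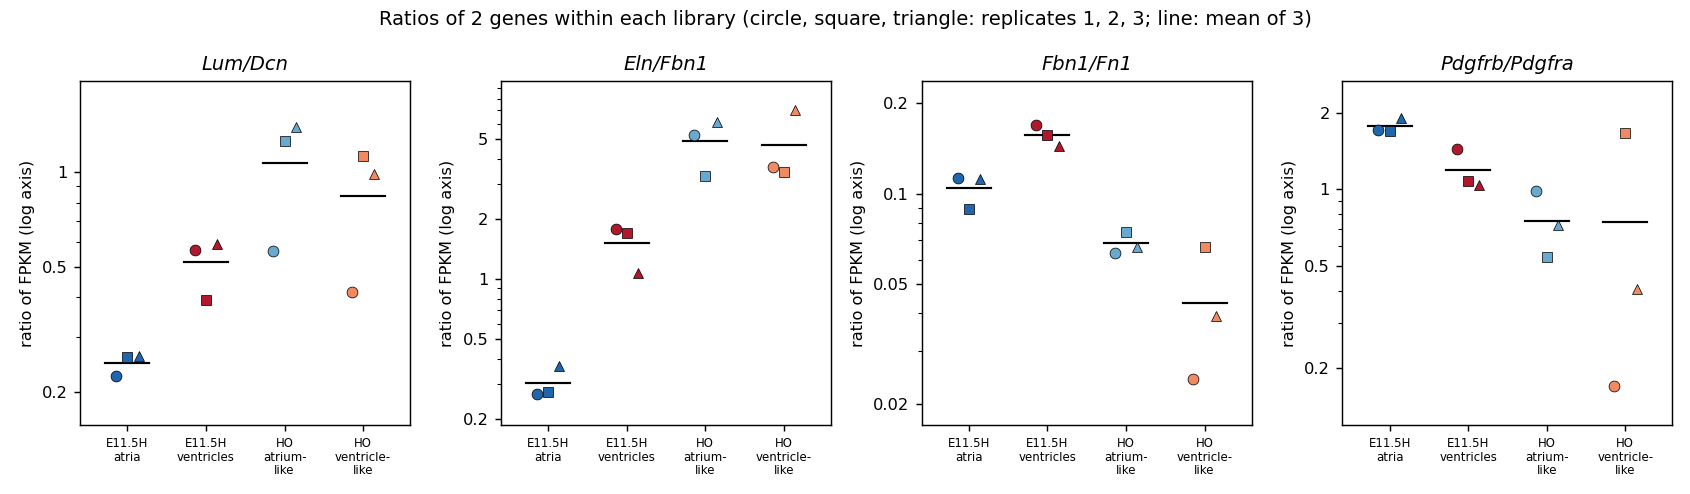
Ratios of FPKM of 2 genes within each library (vertical log axes) in the 4 groups; symbols mark replicates 1, 2 and 3 and lines the mean. Eln over Fbn1 is above 3 in all HO libraries and below 2 in all E11.5H libraries, and Pdgfrb over Pdgfra spreads widely in the ventricle-like parts.

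Dcn and Lum are neighbours on mouse chromosome 10 (GRCm38, 97479500 to 97518163 and 97565501 to 97572703, both on the plus strand), with 47337 bases between them. Lum over Dcn was 0.225, 0.259 and 0.261 in atria and 0.567, 0.392 and 0.591 in ventricles, with no overlap. In HOs it was 0.559, 1.26 and 1.39 in the atrium-like and 0.416, 1.12 and 0.985 in the ventricle-like parts. Thus 4 of the 6 HO libraries lay above all of E11.5H, and atrium-like replicate 1 and ventricle-like replicate 1 lay within the range of ventricles. Pdgfrb over Pdgfra was 1.71, 1.70 and 1.90 in atria and 1.44, 1.08 and 1.04 in ventricles. It was 0.985, 0.544 and 0.724 in the atrium-like parts, below all of E11.5H, and 0.170, 1.66 and 0.408 in the ventricle-like parts, which spanned wider than all other groups.

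Likeness of pattern was measured as the root mean square difference of log2(CPM + 1), centred over the 12 libraries. The closest pairs among the 10 genes were Pdgfra and Fn1 (0.52), Thy1 and Sparc (0.56) and Pdgfrb and Fbn1 (0.63). Low genes such as Thy1 vary little on this scale. Lum was the farthest from 5 of the other genes, with 2.55 from Fbn1 as the widest gap. Outside the 10 genes, the 5 nearest to their mean pattern were Fndc5 (0.27), D10Wsu102e (0.28), Pkd1 (0.28), Mrc2 (0.29) and Tpst1 (0.29), of 12060 genes compared with a median of 0.81. Mrc2, a collagen receptor, had 12.7 and 11.98 FPKM in atrium-like and ventricle-like replicate 2 and 1.61 in atrium-like replicate 1.

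The ligands of the PDGF receptors were examined next, and all 4 were tested in every comparison. Pdgfb, the ligand through which pericytes are recruited, was higher in both parts of HOs. Its FPKM was 0.654 ± 0.264 in atria and 5.81 ± 2.70 in the atrium-like parts (SD, n = 3, log2 fold change 3.34, edgeR adjusted p = 0.00689). It was 0.954 ± 0.182 in ventricles and 3.89 ± 0.259 in the ventricle-like parts (1.93, edgeR adjusted p = 0.00698). Both calls were kept without any one library. Pdgfc was higher in the ventricle-like parts than in ventricles (1.51, edgeR adjusted p = 0.0398), but not without ventricular replicate 1, 2 or 3 (0.117, 0.132 and 0.141) or ventricle-like replicate 1 or 3 (0.113 and 0.0716), nor with limma voom (0.121). It did not pass in the atrium-like parts (-0.02, adjusted p = 0.978). In E11.5H its adjusted p was 0.00353 for atria against ventricles, at a log2 fold change of 0.85 that is under the limit. Pdgfd had -2.11 (adjusted p = 0.0638) in the atrium-like and -0.91 (0.0729) in the ventricle-like parts, and it was called without atrium-like replicate 1 (-1.65, 0.0113) or 2 (-2.52, 0.0431), or without ventricle-like replicate 3 (-1.09, 0.0427). Pdgfd in the atrium-like parts was called as lower by DESeq2 (0.00915), the 3 limma fits (0.0133 to 0.0335) and edgeR on all 12 libraries (0.0161). Pdgfa had a log2 fold change of 0.52 and 0.23 and did not pass. Between the parts of HOs none of the 4 ligands was called.

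Among 10 further small leucine-rich proteoglycans, 2 were higher and 1 lower of 8 tested in the atrium-like parts, and 3 were higher and 1 lower of 7 tested in the ventricle-like parts. Over all genes tested 24.8% and 18.9% were called in these comparisons, which is the background for this and the following lists. Between the chambers of E11.5H the background for all of these lists is 4.9%. Biglycan (Bgn) rose in both (2.56, edgeR adjusted p = 0.0155, and 2.20, 0.0181), as did Prelp (3.76, 0.0238, and 3.52, 0.0458). Fmod, which encodes the collagen-binding fibromodulin, rose in the ventricle-like parts (2.38, edgeR adjusted p = 0.0250). The member that was lower in both was Ecm2, which is added here, like other genes marked as added below, after its values were seen. It had 31, 84 and 92 fragments in atria and 0 in each atrium-like library, and 0.488 FPKM in ventricles against 0.0398 in the ventricle-like parts. None of the list was called between chambers of E11.5H, where 7 were tested. For Bgn, Prelp and Fmod, leaving out any one E11.5H library of the comparison raised the adjusted p to between 0.0589 and 0.158. Prelp was also lost without atrium-like replicate 3 (0.0606) or ventricle-like replicate 1 or 2 (0.0719 and 0.0881), and Fmod without ventricle-like replicate 1 (0.0657). limma voom called neither Prelp (0.135 and 0.105) nor Fmod (0.0887). Ecm2 was lost without atrial replicate 2 or 3 (0.0626 and 0.0615) or any ventricular library (0.0760 to 0.0954).

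All 16 genes of a list for elastic fiber assembly were tested, and 2 were higher and 2 lower in atria than in ventricles of E11.5H, where 4.9% of all genes were called. Lox, which encodes a crosslinking enzyme of elastin and collagen (1.45, edgeR adjusted p = 8.42e-05), and Mfap4 (1.32, 0.000646) were higher in atria. Fbln5, which encodes an elastin-binding protein, was lower there (-1.61, 0.00807), as was the added Ltbp4 (-1.07, 0.000474), which fell under the fold limit without atrial replicate 1 or ventricular replicate 1 (-0.998 and -0.996). In HOs 3 of the 16 were higher and 2 lower in the atrium-like parts, and 3 higher and 3 lower in the ventricle-like parts. Fbn2, the other fibrillin of the embryo, fell in both (-2.93, adjusted p = 0.00675, and -2.15, 0.00273) and kept these calls without any one library. Lox rose in the ventricle-like parts (4.10, edgeR adjusted p = 0.0121), Efemp1 fell in the atrium-like parts (-3.29, 0.0149), and Ltbp2 rose in both (5.22, 0.0301, and 6.26, 0.0270). These calls for Lox, Efemp1 and Ltbp2 were lost without any one E11.5H library of the comparison, with an adjusted p from 0.0524 to 0.113. Ltbp2 in the ventricle-like parts was also lost without ventricle-like replicate 1 (0.0720). Added genes were Lox in the atrium-like parts (2.32, 0.0195), Ltbp3 as higher in both (1.95, 0.0296, and 2.08, 0.00793), and Ltbp1 (-1.68, 0.0408) and Ltbp4 (-1.25, 0.0237) as lower in the ventricle-like parts. Lox and Ltbp3 in the atrium-like parts were lost without any atrial library (0.0791 to 0.114), and Ltbp3 also without atrium-like replicate 3 (0.0703). In the ventricle-like parts Ltbp3 was lost without ventricular replicate 1 (0.0501). Ltbp1 and Ltbp4 were lost without any ventricular library (0.0595 to 0.121), Ltbp1 also without ventricle-like replicate 2 (0.0554) and Ltbp4 without ventricle-like replicate 1 (0.0609). limma voom did not call Ltbp2 in either part (0.164 and 0.375), Ltbp3 in the atrium-like (0.0525) or Lox in the ventricle-like parts (0.0573). With all 12 libraries in 1 edgeR fit, 14 of the 15 calls made in E11.5H over the companion lists here and below were lost (adjusted p from 0.136 to 0.940), and that for Smoc2 was kept.

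The 11 genes of the Sparc family and other matricellular proteins were all tested, and 3 were higher and 3 lower in atria of E11.5H. There 2.92% of all genes were higher and 1.97% lower. Smoc2, a calcium-binding relative of Sparc, was far higher in atria (3.55, edgeR adjusted p = 3.12e-06). Postn (periostin) and Tnc (tenascin-C) were lower (-1.94, adjusted p = 2.85e-06, and -1.38, 0.0465). Tnc was not called without atrial replicate 1 or 3 or ventricular replicate 1 or 2 (0.0602, 0.155, 0.130 and 0.137), nor by DESeq2 (0.0903). Added genes were Thbs1 as lower (-1.32, 2.31e-05) and Spock1 (4.06, 0.0216) and Spock2 (1.71, 0.0451) as higher in atria. Spock1 was lost without atrial replicate 2 or 3 or ventricular replicate 3 (0.0712, 0.0702 and 0.0573), and Spock2 without atrial replicate 2 or 3 or ventricular replicate 1 or 2 (0.0767 to 0.218) and with limma voom (0.0756). In the atrium-like parts 2 were higher and 1 lower, and in the ventricle-like parts 2 were higher. Thbs2, a thrombospondin, rose in both (2.18, edgeR adjusted p = 0.0186, and 3.22, 0.00632), and the second of these calls held without any one library. The first was lost without atrial replicate 1, 2 or 3 (0.0810, 0.0558 and 0.0791) or atrium-like replicate 3 (0.0558). Smoc2 fell in the atrium-like parts (-2.74, adjusted p = 0.00211) without losing the call in any of these fits. Smoc1 rose there (1.499, 0.0225) and Spock1 in the ventricle-like parts (0.0480), from 0.0218 to 2.05 FPKM. Both were lost without any one E11.5H library, with an adjusted p from 0.0679 to 0.158. Smoc1 was also lost without atrium-like replicate 3 (0.0523), and Spock1 without ventricle-like replicate 1 or 2 (0.0649 and 0.107) and with limma voom (0.251).

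From a list of 12 other genes of fibroblasts and mesenchyme, 2 of 10 tested were higher in atria of E11.5H and none lower, namely the collagen I genes Col1a1 (1.11, edgeR adjusted p = 2.08e-05) and Col1a2 (1.08, 0.000210). Col1a2 was under the fold limit without ventricular replicate 3 (0.98). In the atrium-like parts 3 of 12 tested were higher and 1 lower, and in the ventricle-like parts 3 of 11 were higher. Col3a1 rose in the atrium-like parts (1.57, edgeR adjusted p = 0.0262), as did the added Col1a1 (1.51, 0.0418), and Col1a1 (3.26, 0.0307) and the collagen receptor Ddr2 (3.21, 0.0429) in the ventricle-like parts. Dpt (dermatopontin) was called as higher in both, at 4.78 FPKM in the atrium-like and 2.80 in the ventricle-like parts, against 0.0235 and 0.174 in E11.5H, where atria had at most 3 fragments. Tcf21, a transcription factor of epicardial and fibroblast progenitors, fell in the atrium-like parts (-1.70, adjusted p = 0.0188). These calls in HOs were lost without any one E11.5H library of the comparison, with an adjusted p from 0.0537 to 0.147. Tcf21 was also lost without atrium-like replicate 3 (0.0515), Col1a1 in the atrium-like parts without atrium-like replicate 3 (0.0534) or, at 0.84 under the fold limit, without replicate 2, Col1a1 in the ventricle-like parts without ventricle-like replicate 1 (0.0505), and Ddr2 without ventricle-like replicate 1 or 2 (0.105 and 0.0724). limma voom did not call Dpt in either part (0.0908 and 0.107), nor Col1a1 (0.0679) and Ddr2 (0.207) in the ventricle-like parts.

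Of 10 other genes used for pericytes, 8 were tested in each of these comparisons. In atria of E11.5H 1 was higher and 2 were lower, in the atrium-like parts 2 were higher and 1 lower, and in the ventricle-like parts 3 were higher and 3 lower, with a median log2 fold change of -0.80. Rgs5 (-2.52, edgeR adjusted p = 0.0183) and Ndufa4l2 (-2.39, 0.0133) were lower in atria, and Kcnj8, a potassium channel subunit, was higher (1.87, 0.00562). Rgs5 was not called without atrial replicate 1 or 3 or ventricular replicate 1 (0.0598, 0.0834 and 0.0670), nor with limma voom (0.103), nor Ndufa4l2 without atrial replicate 3 (0.0528). Ndufa4l2 rose in both parts of HOs (5.93, adjusted p = 0.00548, and 3.57, 0.00116), and so did Anpep (5.96, 0.00360, and 2.86, 0.0460), which intestinal epithelium also expresses. Kcnj8 rose in the ventricle-like parts (3.16, 0.00698). Des, which encodes desmin of muscle and pericytes, fell in the atrium-like parts (-1.81, edgeR adjusted p = 0.0218). The members lower in the ventricle-like parts, all added, were Des (-1.40, edgeR adjusted p = 0.00198), Mcam (-1.45, 0.0211), which encodes the adhesion molecule CD146, and Abcc9 (-2.42, 0.0452), a subunit of the same channel as Kcnj8. Des in the atrium-like parts was lost without any atrial library or atrium-like replicate 3 (0.0649 to 0.0779), and Anpep in the ventricle-like parts without any ventricular library or ventricle-like replicate 1 (0.0565 to 0.157) and with limma voom (0.210). Mcam and Abcc9 were lost without any ventricular library (0.0705 to 0.140), and Abcc9 also without ventricle-like replicate 1 (0.115). Higd1b was at 0 in all 4 groups and Vtn in both chambers of E11.5H.

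Other cell types moved in the same comparisons. Of the 16 cardiomyocyte genes 15 were lower in the atrium-like and 12 in the ventricle-like parts, and their summed level was 1468 to 11503 CPM in HOs against 36343 to 49109 in E11.5H. The 10 endothelium genes summed to 30.97 to 410.7 CPM in HOs and 628 to 739.9 in E11.5H, with 1 and 3 of them called as lower. Of the 10 smooth muscle genes 2 were higher and 4 lower in the atrium-like parts, and 3 were higher and 4 lower in the ventricle-like parts. All 10 epicardium genes were called in the atrium-like parts, 2 as higher and 8 as lower, whereas 2 were higher and 1 lower in the ventricle-like parts. The 10 macrophage genes had 2 and 6 called as higher, and 5 were higher in atria than in ventricles of E11.5H. Of the 12 hepatocyte and visceral endoderm genes 11 of 11 tested and 5 of 9 tested were higher in HOs. For the 12 gut epithelium genes these were 12 of 12 and 9 of 10, and of the 10 erythroid genes 9 of 9 tested were lower in each part. Parietal endoderm genes had 2 higher and 1 lower in the atrium-like and 1 higher and 2 lower in the ventricle-like parts. Cartilage genes had 1 higher of 8 tested in the atrium-like and 2 lower of 9 tested in the ventricle-like parts. Of 3 skeletal muscle genes tested in the ventricle-like parts 1 was lower, and of 7 tested in the atrium-like parts none was called. No neural or glial gene was called, of 6 tested in the atrium-like and 7 in the ventricle-like parts. Their part in the levels of the 10 genes was not tested.

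Some genes lie over others on the genome. Fn1 overlaps Apol7d on the opposite strand, which had at most 24 fragments, and Pdgfra, Fbn1 and Eln overlap annotated transcripts on the opposite strand that are not in the table. How strand was used in counting is not given in the sources used here, so fragments of such transcripts would not be told apart.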

How the data were processed

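RNA of dissected tissue was made into TruSeq libraries, 3 for each of the 4 groups, and the authors mapped the reads to mm10 with STAR. They deposited expected counts per gene, not normalized (23.8% of values are not whole), and FPKM values per the file headers. The counting tool, annotation release and use of strand are not given in the sources used here. Groups came from the labels. Nothing in the labels says that the libraries are from separate cultures or animals. The methods call the dissected HOs biological triplicates, and give no such term for the E11.5 hearts dissected into atria and ventricles. The p-values measure the spread between these libraries.

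The counts were rounded, filtered at a minimum count of 10 and scaled by TMM, and edgeR (version 4.0.16, R version 4.3.3) gave quasi-likelihood tests with Benjamini-Hochberg adjustment, each comparison on its own libraries and the interaction on all 12. DESeq2 1.42.0 and limma 3.58.1 were alternatives. The 10 genes, the companion lists and the cell type lists were chosen with earlier results of these data known. From each companion list at most 3 called genes per comparison are named, those with the largest change whose higher group had a mean of 5 CPM or more, and all 4 PDGF ligands. Called genes outside this rule were added after their values were seen. Protein sequences were not used here.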

Additional observations from a re-analysis of the deposited data

Results flagged for a closer look

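The chamber difference of Smoc2 was not the same in E11.5H and HOs by the interaction test (-3.60 on the log2 scale, SE 0.54, edgeR adjusted p = 0.0398). Smoc2 had 27.1 FPKM in atria and 2.19 in ventricles of E11.5H, and 3.55 in atrium-like and 4.16 in ventricle-like parts of HOs. The adjusted p was 0.0920, 0.165 and 0.147 without atrial replicate 1, 2 and 3, 0.147, 0.155 and 0.1498 without ventricular replicate 1, 2 and 3, and 0.0912 without HO atrium-like replicate 3. It was 0.0925 with limma voom and 0.0664 with the replicate number as a block. Groups of 3 are too small for a test of single outlying libraries.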

How the results depend on the processing

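Leaving out 1 library in turn, the number of the 10 genes called ranged from 2 to 3 in E11.5H, from 1 to 6 in the atrium-like and from 0 to 4 in the ventricle-like parts against E11.5H, and from 0 to 1 for the interaction, and stayed at 0 between HO parts. Over all genes the calls ranged from 538 to 765, 1662 to 5495, 1116 to 3725 and 2 to 216, and stayed at 0 between HO parts. DESeq2 called 5 (Dcn and Fbn1 in addition) in the atrium-like parts, where it called 4794 of 15275 genes of all. For the interaction it called 2, beside 455 of 16338 genes of all. With all 12 libraries in 1 fit, the chambers of E11.5H gave 55 calls over all genes in place of 712. By CPM the same HO libraries were lowest for 8 genes, and 7 genes kept the order of the 4 groups. Shares over all genes for the order of HO libraries were computed from FPKM only. Of the 19 and 23 calls in the companion lists for the atrium-like and ventricle-like parts, limma voom lost 4 and 10, limma on log2(FPKM + 1) 8 and 7, limma on log2(FPKM + 0.1) 5 and 3, and DESeq2 0 and 0.

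Of the interaction, only values given in the text were recomputed. Values that changed sign were all of genes not called in that comparison. Thy1 had at most 15 fragments in E11.5H, which limits its fold changes. Between HO parts, limma on log2(FPKM + 1) gave -0.024 for Pdgfra, -0.19 for Lum, -0.045 for Fbn1 and -0.29 for Sparc, and on log2(FPKM + 0.1) -0.034, -0.19, -0.031 and -0.29. Scaling by library totals only gave -0.033 for Fbn1 and -0.044 for Sparc, and limma voom gave -0.11 for Sparc. For Pdgfra in the atrium-like parts against atria, limma on log2(FPKM + 1), on log2(FPKM + 0.1) and voom gave -0.23, -0.34 and -0.11, and in the ventricle-like parts against ventricles -0.019, -0.11 and -0.22. For Fn1 in the latter they gave -0.035, -0.039 and -0.13. For Lum in E11.5H these limma fits gave 0.040 and 0.042, and library totals gave 0.082. Pdgfc in the atrium-like parts turned to 0.000704 with RLE size factors, 0.000762 with DESeq2 and 0.0016 with a minimum count of 50. With 1 library left out, values between HO parts spanned -1.40 to 0.30 for Dcn, -0.15 to 0.59 for Eln, -0.75 to 0.61 for Fbn1, -0.73 to 0.78 for Lum, -1.15 to 1.14 for Pdgfra, -0.84 to 1.84 for Pdgfrb and -0.48 to 0.42 for Sparc. In E11.5H they spanned -0.26 to 0.14 for Lum, -0.055 to 0.33 for Pdgfra and -0.032 to 0.23 for Pdgfa. In the atrium-like parts they spanned -0.94 to 0.93 for Pdgfra and -0.60 to 0.34 for Pdgfc, and in the ventricle-like parts -0.48 to 0.66 for Fn1, -0.55 to 0.85 for Pdgfra and -0.16 to 0.39 for Pdgfa.

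Per the methods, both parts were dissected from the same triplicate of HOs, but no source used here says that parts with the same number came from the same HO, and the numbers were not taken as pairs: deviations of HO parts with the same number correlated at -0.08, 0.64 and 0.41, and those of E11.5H chambers at 0.02, 0.04 and 0.08. With different numbers the correlations ran from -0.75 to 0.53 for HO parts and from -0.08 to 0.04 for E11.5H chambers. With the replicate number as a block 3 of the 10 genes were called in E11.5H (621 calls over all genes in place of 712). Between HO parts 0 were called, and 0 over all genes. For HO parts against E11.5H the block joins HO and embryonic libraries by their number alone, so it is arbitrary there. In these fits 3 genes were called in the atrium-like parts (2806 calls over all genes in place of 3821). In the ventricle-like parts 2 were called (2003 in place of 2859), and Dcn was lost (edgeR adjusted p = 0.0709). Of the calls in the companion lists the block lost 0 of 15 in E11.5H, 5 of 19 in the atrium-like and 8 of 23 in the ventricle-like parts. The block gave -0.063 for Sparc between HO parts, -0.19 and -0.17 for Pdgfra in the atrium-like and ventricle-like parts, and -0.11 for Fn1 in the latter.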
